A study of Mus musculus with 99 samples.

Results

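The 10 genes described here encode the main folding machinery of the endoplasmic reticulum (ER) and 1 of its transcriptional regulators: Hspa5, Hsp90b1, Dnajb11, Sdf2l1, Calr, Pdia4, Pdia6, Manf, Creld2 and Xbp1. They were found by their Ensembl identifiers among the 55335 gene identifiers of the count tables. The members were chosen by measured values of these same libraries (their levels in 5 brain regions, their covariation between regions, and fentanyl against water), so those values are given as a description and support nothing by themselves.

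The study sequenced RNA from bulk tissue punches of juvenile wildtype offspring of C57BL/6 mouse dams. The fentanyl groups came from dams that drank 10 µg/ml fentanyl from embryonic day 0 until weaning, and the control groups from dams on water. Punches were taken from the ventral tegmental area (VTA), ventrobasal thalamus (VBT), somatosensory cortex S1, prelimbic cortex (PrL) and nucleus accumbens (NAc) of females and males, which makes 20 groups of 5 libraries, except 4 libraries for S1 water males. Of 99 libraries, 98 were used: a VTA library of a water male with counts for only 6333 genes, in which 5 of the 10 members had no count, was left out. The exact age, the litters and whether the same number in 2 regions or groups marks the same animal are not given in the labels, and nothing says that the libraries of a group came from separate animals; p-values then measure only the spread between these libraries, which may be technical.

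The ER folds secreted and membrane proteins. Hspa5 (BiP) holds unfolded chains and is helped by the co-chaperones Dnajb11 and Sdf2l1. Hsp90b1 (Grp94) is the HSP90 of this compartment, Calr (calreticulin) binds calcium and glycoproteins in folding, and Pdia4 and Pdia6 form and rearrange disulfide bonds. Manf and Creld2 are small ER proteins that are partly secreted under stress. When unfolded protein builds up, the sensors Ern1 (IRE1), Atf6 and Eif2ak3 (PERK) start the unfolded protein response. IRE1 splices the mRNA of Xbp1 into the form that codes for the active factor, and ATF6 and XBP1 act on the promoters of chaperone genes through short elements. Counts per gene do not separate spliced from unspliced Xbp1.

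These elements were looked for after the members were seen to move together in the libraries. As they are known from promoters of chaperone genes, matches in the members' windows are a description and support nothing about that movement. RefSeq promoter windows (GRCm38.p6, 250 bases before to 50 bases after the start) were matched for 9 of the 10 members, all but Manf. On both strands, 3 motifs were searched: the ER stress element ERSE (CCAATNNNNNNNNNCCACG), ERSE-II (ATTGGNCCACG) and the unfolded protein response element UPRE (TGACGTGG), in which no printed site overlaps another. The matched stretches are printed 5′ to 3′ with 4 flanking bases in lower case, and the fixed letters of the motif in capitals.
Hspa5, chr2:34772021-34772047, plus strand: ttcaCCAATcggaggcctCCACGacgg
Hsp90b1, chr10:86705529-86705555, plus strand: ctcaCCAATcgtgcctcaCCACGcact
Hsp90b1, chr10:86705634-86705660, minus strand: aagcCCAATcgcaaggagCCACGcttc
Calr, chr8:84847071-84847097, plus strand: tgggCCAATgagggtcgaCCACGcgtt
Pdia6, chr12:17266487-17266513, plus strand: gagaCCAATgaaaggcggCCACGgcgt
Creld2, chr15:88819516-88819542, minus strand: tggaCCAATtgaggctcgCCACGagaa
Dnajb11 (ERSE-II), chr16:22857848-22857866, plus strand: ggcgATTGGcCCACGcctg

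ERSE was present in 5 of the 9 member windows (Hspa5, Hsp90b1, Calr, Pdia6 and Creld2), and Hsp90b1 held 2 copies in opposite orientation. It was present in 0.119% of all 32851 windows of the table. The centres of the ERSE sites lay between 203 and 56 bases upstream of the RefSeq start. ERSE-II was present in the Dnajb11 window, 12 bases downstream of the start, and in 0.0365% of all windows. UPRE was in 0 of the 9 windows and in 0.676% of all windows. The windows of Sdf2l1, Pdia4 and Xbp1 held none of these exact strings. Among the other ER folding genes, 3 of 15 with a window held ERSE: Canx, Dnajc3 and Ero1b. A match is a string of letters and was not tested for function here.

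In the GENCODE M21 annotation of GRCm38, Hspa5 (ENSMUSG00000026864) lies at chr2:34771970-34777547 and Hsp90b1 (ENSMUSG00000020048) at chr10:86690209-86705509. The co-chaperones Dnajb11 and Sdf2l1 lie apart on one chromosome, at chr16:22857845-22879634 and chr16:17130138-17132383. Calr is at chr8:84841850-84846934, Pdia4 at chr6:47796141-47813430 and Pdia6 at chr12:17266545-17284770. Manf is at chr9:106838312-106891979, Creld2 at chr15:88819646-88826683 and Xbp1 at chr11:5520659-5525893. Values are counts over all exons of a gene. The library kit does not mark strand, so reads from genes that overlap Hsp90b1 (such as 1810014B01Rik), Dnajb11 (Gm30505), Pdia6 (Atp6v1c2) and Manf (Dcaf1 and Rbm15b) are uncertain.

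The used libraries held 23032078 to 52069639 counts over genes, and 24079 to 27347 genes with a count. Punches were compared with their labels by the mean log2(CPM + 1) of lists of 6 marker genes. CPM is the count divided by the library's total and scaled so that every library has the same sum. VTA markers were at 3.94 to 6.47 in VTA libraries and at most 1.78 elsewhere. The other lists separated VBT (5.74 to 7.46, at most 5.72 elsewhere), both cortices (6.73 to 7.51, at most 5.97 elsewhere) and NAc (7.19 to 8.96), although 1 VBT library reached 6.52 for the striatal markers. VBT lay only just above the highest VTA library, and 1 list served both cortices, so S1 and PrL were not told apart. Cortex markers in NAc libraries ran from 3.05 to 5.97. Choroid plexus markers, from tissue next to some punches, varied widely (8 markers, up to 6.73 in 1 VBT library). In bulk tissue, a change in the number of cells of a type and a change in RNA per cell cannot be told apart.

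All 10 members were counted in every used library, with the lowest count at 157 reads, for Sdf2l1. Per length, as TPM (CPM corrected for exon length, with the same sum in every library), Calr was the most abundant at 499 ± 49.2 (SD, n = 98 libraries), followed by Hsp90b1 at 335 ± 50.6 and Hspa5 at 277 ± 55.5. Pdia6 (99.9 ± 16.4), Xbp1 (82.4 ± 16.6), Dnajb11 (70.8 ± 6.91) and Pdia4 (68.3 ± 11.9) formed a middle tier on this scale. Manf (50 ± 6.39), Creld2 (33.1 ± 5.99) and Sdf2l1 (27.4 ± 7.84) were lowest.

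Levels of the members were compared between regions. The ratio of the highest to the lowest region mean, in CPM, ran from 1.11 for Manf to 1.62 for Xbp1. The highest and lowest region were apart by more than the larger SD of the pair for 7 of 10 members. Neighbours in the order of the regions, which are by construction the closest, were apart by more than that in 2 of 40 pairs. Hsp90b1 averaged 420 ± 43.1 CPM in VTA (SD, n = 19) and 338 ± 37.3 in NAc (n = 20), followed by PrL (330 ± 25.2), S1 (309 ± 18.4) and VBT (300 ± 22.7). Xbp1 averaged 75.7 ± 8.89 CPM in VTA, 73 ± 7.96 in PrL, 71.1 ± 8.19 in S1 and 70.1 ± 10.7 in NAc, against 46.6 ± 6.75 in VBT. Hspa5 ran from 359 ± 41.9 CPM in VTA through NAc (294 ± 66.9), PrL (286 ± 44.6) and VBT (279 ± 42.8) to 253 ± 44.5 in S1, with no neighbours apart beyond their spread. Calr was highest in NAc (382 ± 46.7 CPM) and PrL (381 ± 24.1) and lowest in S1 (329 ± 32.4), and Pdia6 was highest in PrL (109 ± 12.8) and lowest in VBT (78.2 ± 9.46). The remaining members also had overlapping neighbours. Dnajb11 ranged from 60.9 ± 4.32 CPM in VBT to 54.5 ± 6.61 in NAc, Sdf2l1 from 8.97 ± 1.89 in VBT to 6.96 ± 2.3 in S1, and Pdia4 from 48.9 ± 4.31 in VTA to 36.2 ± 5.29 in S1. Manf ranged from 45.7 ± 4.1 CPM in VTA to 41.3 ± 6 in S1, and Creld2 from 12.8 ± 2.28 in NAc to 9.93 ± 1.85 in VBT.

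The libraries of 1 number were high in every region. Hspa5, the central chaperone, shows it in single values, although none of them passed the limit for values set apart that is used below. In VTA the fentanyl males had 495, 345, 359, 345 and 403 CPM of Hspa5 for numbers 1 to 5. In VBT they had 412, 248, 256, 247 and 299 CPM, and in S1 405, 213, 268, 234 and 287 CPM. Number 1 was thus the highest of its group in these 3 regions.
In PrL the values were 432, 245, 263, 270 and 310 CPM, and in NAc 548, 290, 307, 246 and 363 CPM. Number 1 was again highest and number 5 second in both regions. In the water males Hspa5 ranged from 328 to 382 CPM (VTA), 234 to 303 (VBT), 211 to 266 (S1), 242 to 297 (PrL) and 262 to 302 (NAc), below number 1 of the fentanyl males in each region. The other 4 fentanyl males overlapped the water males in all 5 regions. For Hspa5 the male fentanyl library of number 1 was the highest of all libraries of its region in 5 of 5 regions.

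**Figure D1:**
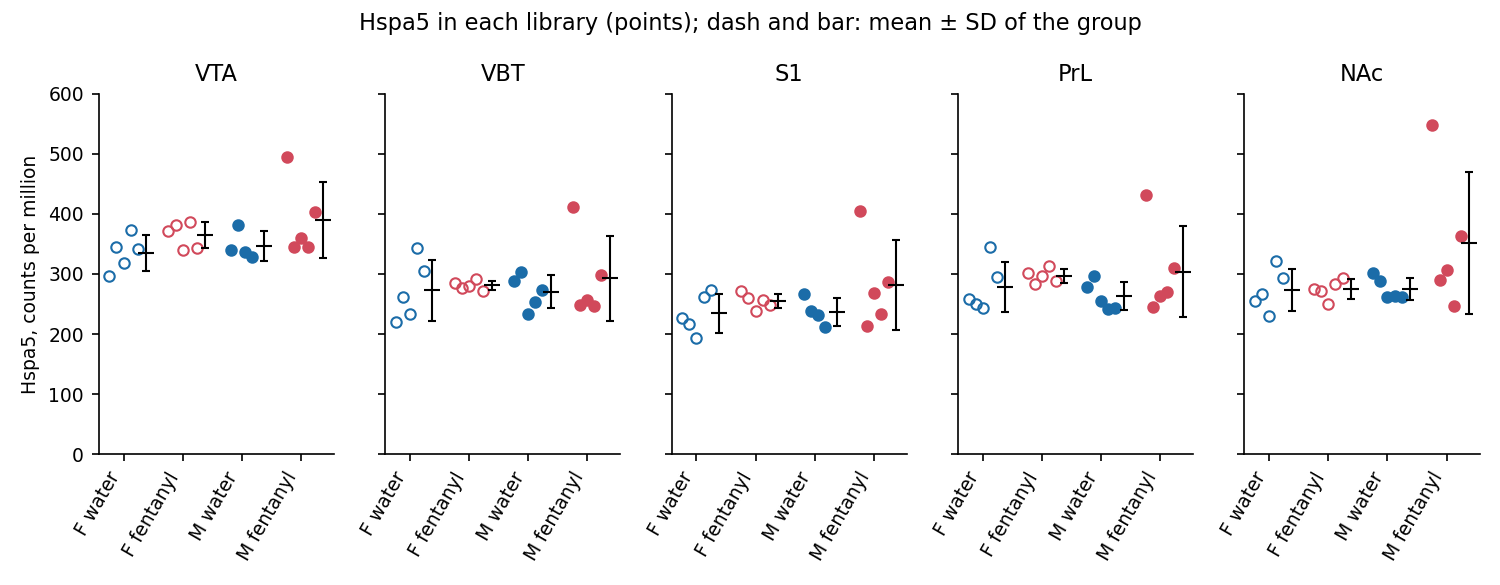
Hspa5 in CPM (y axis, from 0) in every used library, by region (panels) and by sex and treatment (x axis; open points females, filled points males, blue water, red fentanyl; points run from number 1 on the left to 5 on the right). In each panel 1 male fentanyl library, number 1, lies above all others (405 to 548 CPM), and the dash with its bar gives the group mean ± SD.

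The other members were high in the same libraries. The CPM of male fentanyl number 1 divided by the mean of the other 4 male fentanyl libraries of the region ranged from 1.12 to 2.40 over the 50 combinations of member and region, with a median of 1.39. It was the highest library of its group in 48 of 50 combinations and of its whole region in 44 of 50. Sdf2l1 had the highest median ratio, 1.71, and ratios from 1.68 to 2.40; in NAc Hspa5 (1.82) was above it (1.71). In S1 Sdf2l1 stood at 15.8 CPM in number 1 against 6.29, 7.35, 5.13 and 7.64 CPM in numbers 2 to 5. The ratio was 1.36 to 1.82 for Hspa5, 1.14 to 1.66 for Pdia4, 1.32 to 1.54 for Manf, 1.26 to 1.82 for Creld2 and 1.37 to 1.53 for Xbp1. Ratios were 1.22 to 1.45 for Pdia6, 1.12 to 1.38 for Dnajb11, 1.15 to 1.36 for Hsp90b1 and 1.16 to 1.23 for Calr, and the smallest was that of Dnajb11 in VBT. By the median ratio, Calr, the most abundant member per length, differed least (1.20) and Sdf2l1, the least abundant, most. Other values of this number also stood apart. In VTA its VTA markers were at 3.94 against 4.78 to 6.07 in the other 4, and in NAc its cortex markers were at 5.89 against 3.42 to 5.52 (mean log2(CPM + 1) of 6 markers each). It had 24701 genes with a count in VTA (25414 to 25980 in the others) and 25123 in VBT (25307 to 25755). Its reads outside exons were 10.5% in VTA (10.9 to 11.8%) and 10.4% in PrL (10.8 to 12.2%). The rank correlation of GC content with level was -0.281 in NAc (-0.132 to 0.466), and also lay just outside the others in VBT and S1. Its total counts lay within the range of the others in all 5 regions. The part of these in the members' values was not tested.

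**Figure D2:**
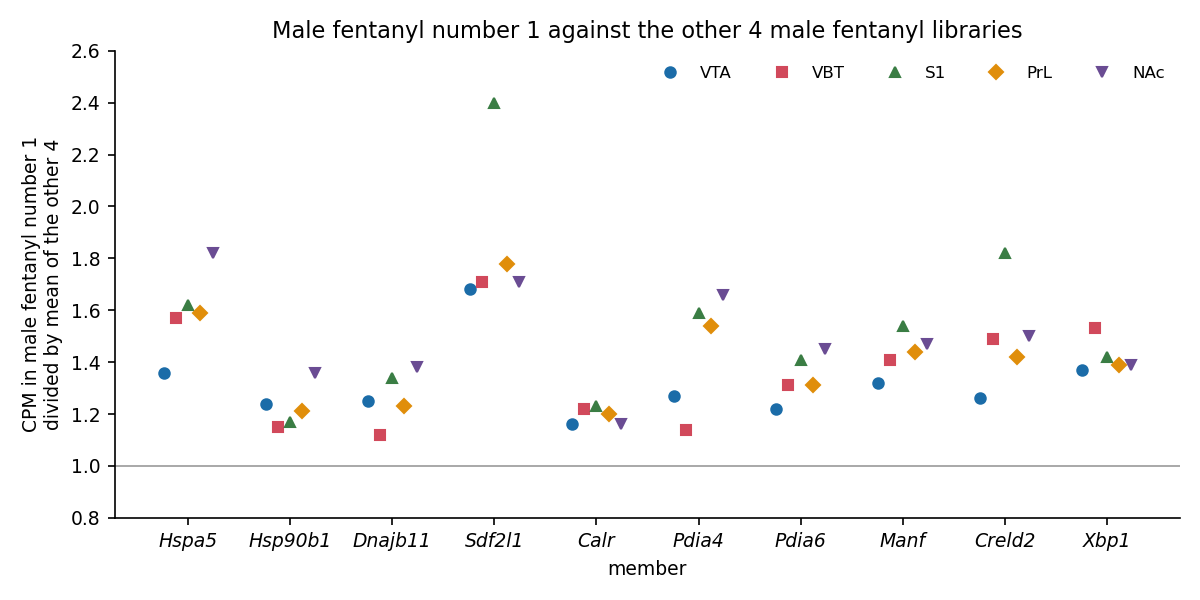
CPM of each member (x axis) in the male fentanyl library of number 1, divided by the mean of the other 4 male fentanyl libraries of the same region (y axis, linear, line at 1). Points are the 5 regions; all 50 lie above 1, from 1.12 to 2.40.

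To compare all libraries, each member's log2(CPM + 1) was centred on the mean of its region, sex and treatment group, and averaged over the 10 members. Male fentanyl number 1 deviated by 0.30 (VTA), 0.34 (VBT), 0.47 (S1), 0.38 (PrL) and 0.45 (NAc) on this log2 scale, the highest of each region. The next highest in 4 regions was female water number 4, at 0.19 (VTA), 0.17 (VBT), 0.11 (S1) and 0.16 (PrL), and it was at 0.12 in NAc. Female water number 3 was low throughout, at -0.09, -0.22, -0.10, -0.11 and -0.13 in VTA, VBT, S1, PrL and NAc. Of the 18 numbers with a library in all 5 regions, 11 deviated in the same direction in every region. Male fentanyl numbers 2, 3 and 4 were below their group mean in 5 of 5 regions, a mean that number 1 itself raises. In female fentanyl libraries the deviations stayed between -0.08 and 0.10.

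**Figure D3:**
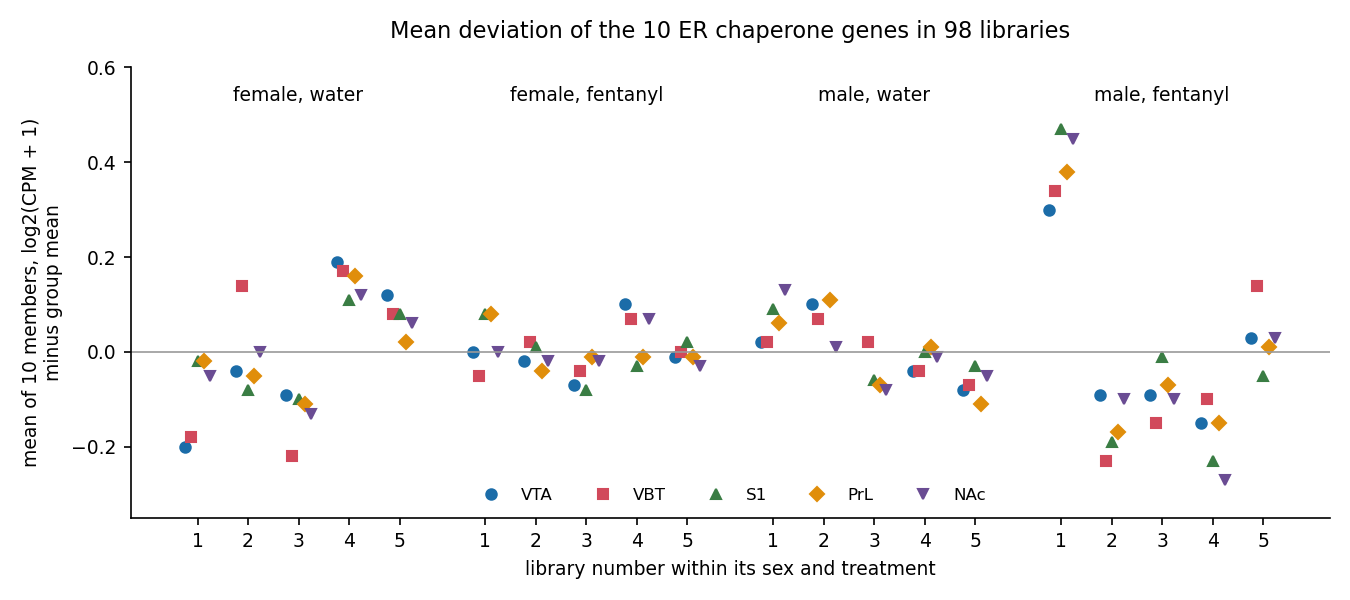
Mean over the 10 members of log2(CPM + 1) minus the mean of the region, sex and treatment group (y axis, 0 is the group mean), for each library number (x axis) within the 4 combinations of sex and treatment; symbols are the 5 regions. All 5 symbols lie above 0 for male fentanyl number 1 (0.30 to 0.47) and female water number 4 (0.11 to 0.19), while those of others, such as female water number 2 (-0.08 to 0.14), lie on both sides of 0.

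This covariation was summarised per gene as the Pearson correlation of group-centred values between libraries of the same sex, treatment and number in 2 regions, averaged over the 10 pairs of regions (18 to 20 numbers a pair). Since the members were chosen for it, it is a description. The values were 0.88 for Hspa5, 0.77 for Xbp1, 0.75 for Manf, 0.73 for Calr, 0.70 for Pdia6, 0.66 for Pdia4, 0.65 for Dnajb11, 0.61 for Hsp90b1, 0.53 for Sdf2l1 and 0.37 for Creld2. Over all 10863 genes with a mean of at least 5 CPM in every region the median was 0.027, and 0.792% of them were above 0.5, against 9 of the 10 members. With all used libraries Hspa5 had the highest value of these genes, and single pairs of regions gave 0.82 to 0.92 for it. Between S1 and PrL the median over the members was 0.83, the highest of the pairs, and between VBT and S1 it was 0.61, the lowest.

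**Figure D4:**
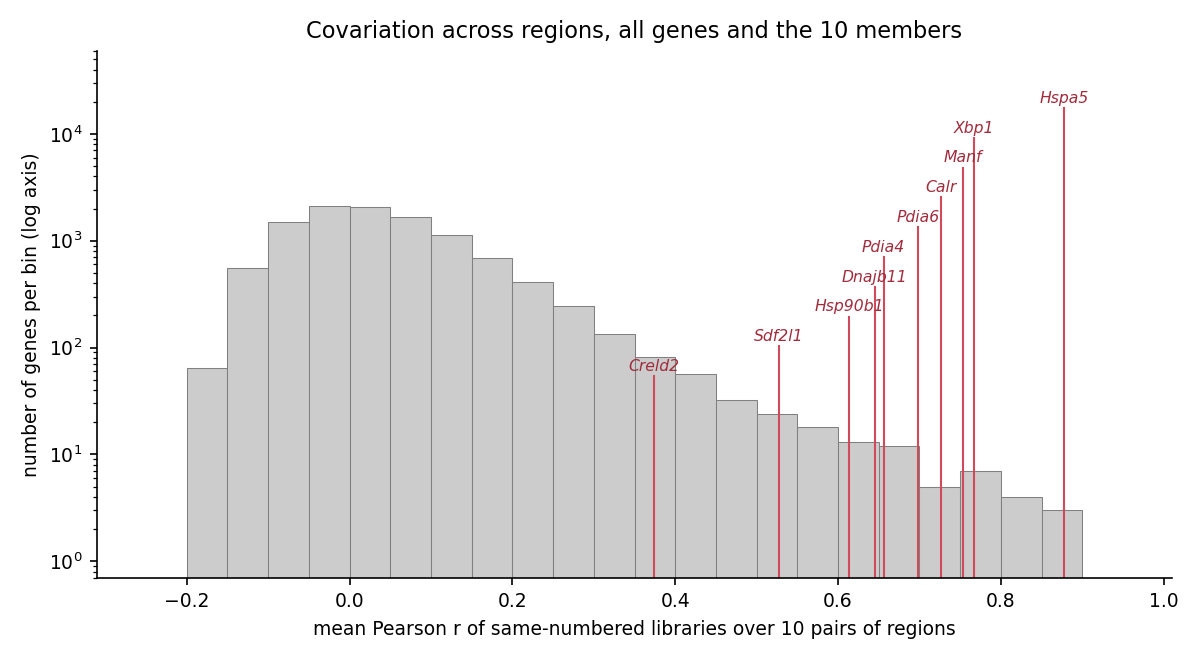
Histogram of the mean correlation of same-numbered libraries over the 10 pairs of regions (x axis) for 10863 genes (y axis, number of genes per bin of 0.05, log axis). Red lines, with heights set only for their labels, mark the members, from Creld2 (0.37) to Hspa5 (0.88); the median of all genes is 0.027.

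Part of this rests on the 5 libraries of male fentanyl number 1. Without them, and with group means taken again, the median over the members fell from 0.677 to 0.453, and that over all genes was 0.009. Hspa5 went from the highest value of all genes to the tenth, at 0.74, followed among the members by Calr (0.66), Pdia6 (0.56) and Pdia4 (0.55). These 4 were the members left above 0.5, against 0.442% of all genes. Xbp1 fell to 0.49, Dnajb11 to 0.42, Hsp90b1 to 0.41, Manf to 0.40, Sdf2l1 to 0.22 and Creld2 to 0.04. Among subsets that hold these libraries, the median over the members was 0.78 in males alone and 0.76 in fentanyl libraries alone. In those that do not, it was 0.44 in females alone, 0.46 in males without fentanyl number 1 and 0.50 in water libraries alone. The median over all genes was between -0.00 and 0.04 in these 5 subsets.

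Within each region the members also rose and fell together from library to library. Over the 45 pairs of members the median correlation of group-centred values was 0.72 (VTA), 0.74 (VBT), 0.80 (S1), 0.75 (PrL) and 0.68 (NAc), and 0.59, 0.66, 0.53, 0.54 and 0.40 without male fentanyl number 1. All 45 pairs were positive in 4 regions and 44 in NAc, where Calr and Creld2 gave -0.02. The closest pairs were Hspa5 with Pdia4 in PrL (0.96) and Calr with Pdia6 in VTA (0.96). Hspa5 had the highest median correlation with the other members over the 5 regions (0.81), and Hsp90b1 (0.65) and Creld2 (0.60) the lowest.

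Single values departed from this pattern in VBT, where Hspa5 and Pdia4 gave the lowest correlation (0.30). Pdia4 was 55.3 CPM in female water number 2 and 49.6 in male fentanyl number 5, against 43.8 in male fentanyl number 1. Those 2 libraries also had the highest choroid plexus marker levels of VBT (6.73 and 4.20, mean log2(CPM + 1) of 8 markers), with Ttr, the transthyretin gene of this tissue, at 4125 and 599 CPM. The third in these markers, female water number 3 (3.31, Ttr at 212 CPM), had the lowest Pdia4 of VBT, at 27.8 CPM. In VTA, male water number 2 (5.03) and female water number 5 (3.89) were the 2 highest in these markers. They were also the 2 highest in Sdf2l1, at 13.3 and 13.1 CPM. Next in these markers was female fentanyl number 2 (2.73), which had the lowest Sdf2l1 of VTA, at 4.9 CPM. Female water number 4 (2.43) and male water number 1 (2.29) had 11.4 and 11.1 CPM of Sdf2l1. The part of choroid plexus tissue in these values was not tested.

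Between regions, most other genes of ER folding had lower values than the members, which were chosen for this measure. The values below are therefore a description and do not set the members apart from their pathway. Over the 16 of 18 that reached 5 CPM in every region, the median covariation between regions was 0.063, with Pdia3 (0.62), Dnajc3 (0.52) and Hyou1 (0.41) at the top and P4hb (-0.015) and Fkbp2 (-0.034) near 0 or below. Genes of ER-associated degradation had a median of 0.059 (10 genes, highest Herpud1 at 0.31), the sensors of the unfolded protein response 0.039 (6 genes, highest Ern1 at 0.16), the ATF4 targets of the PERK arm 0.014 (8 genes, Atf4 itself 0.27) and the translocation machinery 0.076 (11 genes). Thus the mRNAs of the sensors Atf6 (0.044) and Eif2ak3 (-0.059) showed values near the median of all genes. Cytosolic heat shock genes were mixed, with Dnajb1 at 0.59, Hsph1 at 0.55 and Hsp90aa1 at -0.048. Other groups covaried between regions without being ER genes: the median was 0.70 for 2 blood markers, 0.63 for 6 immediate early genes, 0.54 for 8 glucocorticoid-responsive genes and 0.51 for 13 clock genes.

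Within regions, the mean deviation of the members went with some of these lists. Its correlation with the mean of the other ER folding genes was 0.29 to 0.58 over the 5 regions, and 0.39 to 0.68 without male fentanyl number 1. For ER-associated degradation it was 0.46 to 0.70, and 0.22 to 0.61 without that number. For both lists these correlations were positive in every region but low in some. The translocation genes gave 0.17 to 0.68, and 0.36 to 0.69 without that number. The sensors gave -0.14 to 0.39 (-0.21 to 0.53 without it) and the ATF4 targets -0.16 to 0.24 (-0.29 to 0.44 without it). The correlation with the mean of the cytosolic heat shock genes was 0.53 to 0.77, and 0.30 to 0.77 without male fentanyl number 1. For the glucocorticoid-responsive genes it was 0.45 to 0.83, and 0.14 to 0.57 without that number; for the immediate early genes 0.22 to 0.51, and -0.11 to 0.21. In male fentanyl number 1 the glucocorticoid-responsive list lay above the other 4 libraries of its group in all 5 regions, by 0.36 to 0.60 on the log2 scale. The heat shock list lay above them in 4 regions (all but NAc) and the immediate early list in 4 (all but VTA). For measures of the library, the correlation with the members' deviation was -0.62 to 0.22 for the percent of reads outside exons, -0.46 to -0.16 for the number of genes with a count, -0.48 to -0.02 for multiply aligned reads as a percent of gene counts and -0.33 to 0.06 for the total count. The value for multiply aligned reads was -0.58 to -0.21 without male fentanyl number 1. Among the markers of regions and cells, those of cortex gave a positive value in every region (0.11 to 0.56, and 0.10 to 0.48 without that number). These are descriptions over 19 or 20 libraries that share a punch and a depth with the members, and the part of any of them was not tested.

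The 10 other genes most like the members, by the mean over the 5 regions of the correlation with the members' mean deviation (98 libraries), were P4ha1 (0.84), a prolyl hydroxylase subunit for collagen; Pdia3 (0.78), a disulfide isomerase that works with calnexin and calreticulin; Zbtb40 (0.72), a zinc finger protein; and Dnajb1 (0.69), a cytosolic co-chaperone. They were followed by Dnajc3 (0.68), a co-chaperone of BiP, Mkks (0.67), a chaperonin-like protein, Banp (0.66), a nuclear DNA-binding protein, and Fosl2 (0.66), an AP-1 factor. Hyou1 (0.65), a large ER chaperone, and Dusp4 (0.64), a MAP kinase phosphatase, completed the list. The members themselves ranged from 0.74 (Hsp90b1) to 0.92 (Hspa5), with each member part of the mean it is compared with. Without male fentanyl number 1, P4ha1 was at 0.65, Pdia3 at 0.71, Hyou1 at 0.61 and Dusp4 at 0.37.

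Fentanyl was compared with water in each region with edgeR's quasi-likelihood test, with p-values adjusted by Benjamini-Hochberg over all genes of the region, and genes were called at an adjusted p under 0.05. The rule for the members used this contrast, so the counts are printed beside the share of all genes called and nothing is read from them. In VTA 1 of 10 members was called in males by edgeR (22% of all 19822 genes called), 1 by DESeq2 (5038 genes) and 1 by edgeR averaged over sexes (23.1%), Hsp90b1 in both edgeR contrasts. DESeq2 averaged over sexes called 1 (5170 genes). In edgeR 1 member had a raw p under 0.05 in males (34.7% of all genes) and 4 averaged over sexes (35.4%). In females 0 were called by edgeR (0% of all genes) and 0 by DESeq2 (88 genes), with 1 at a raw p under 0.05 (12.7% of all genes).

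In VTA Hsp90b1 stood at 533, 418, 439, 409 and 454 CPM in the fentanyl males of numbers 1 to 5, and at 390, 416, 361 and 368 CPM in the water males of numbers 1, 2, 4 and 5. The groups overlapped at 1 library each (409 and 416 CPM). The log2 fold change was 0.27 (SE 0.08, adjusted p = 0.0226 by edgeR's quasi-likelihood test) in males and 0.21 (SE 0.06, adjusted p = 0.00942) averaged over sexes. In females it was 0.16 (SE 0.08, adjusted p = 0.391), and the interaction was 0.11 (SE 0.11, adjusted p = 0.704). With the share of reads outside exons as covariate the male value was 0.23 and not called. The call in males was also lost without male fentanyl number 1 (0.20) and without male water number 4 (0.23) or 5 (0.24). The GC content of counted genes moved with the groups: the rank correlation between a gene's GC content and its level relative to the region was -0.58 to -0.14 in the VTA libraries of fentanyl males and 0.61 to 0.72 in those of water males. Hsp90b1 has the lowest GC content of the members (42.1%) and Sdf2l1 the highest (56.7%). Over the 10 members in VTA males, the correlation of GC content with the log2 fold change was -0.73, and -0.19 in a fit with offsets for GC content. Markers of other tissue also differed: 3 of 8 choroid plexus markers fell in VTA averaged over sexes (list median -1.30), beside 23.1% of all genes called. The 6 VTA markers had a list median of -0.54 (-0.71 in males) with 0 called, and among 6 cortex markers Slc17a7 rose by 2.54 and Cux2 fell by 0.19. Their part was not tested. In the fit with offsets Hsp90b1 had a log2 fold change of 0.05 in males (0.06 averaged over sexes) and was not called. The part of GC content in the call was not tested beyond this fit.

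Hspa5 in VTA had a log2 fold change of 0.21 in males (SE 0.10, adjusted p = 0.15 by edgeR's quasi-likelihood test) and 0.11 in females (SE 0.09), neither called. The male value was 0.10 without male fentanyl number 1, 0.08 with GC offsets and 0.10 with the share of reads outside exons as covariate. Sdf2l1 and Creld2 had log2 fold changes below 0 in VTA males. The Sdf2l1 levels were 10.6, 6.41, 6.35, 6 and 6.46 CPM in fentanyl males and 11.1, 13.3, 8.31 and 8.61 CPM in water males, with only number 1 of the fentanyl group within the range of water. The log2 fold change was -0.49 (SE 0.27) and was not called. It was -0.24 with GC offsets, and -0.82 and called with the share of reads outside exons as covariate (adjusted p = 0.00625 by edgeR's quasi-likelihood test). Creld2 was at 13.9, 11.1, 11.5, 10.2 and 11.4 CPM against 13.5, 14.6, 14.9 and 13.5 CPM (log2 fold change -0.24, SE 0.13; -0.05 with GC offsets, -0.34 and called with that covariate), and 4 of the 5 fentanyl males were below all water males.

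In NAc all 10 members had a positive log2 fold change in males, from 0.20 to 0.49 with a median of 0.24, where the median of all genes was -0.01. By edgeR's test 0 of them were called (0.662% of all genes called) and 8 had a raw p under 0.05 (17.6% of all genes). Without male fentanyl number 1, 2 had a raw p under 0.05 (Xbp1 and Pdia4), beside 17.8% of all genes in that fit. DESeq2 called 1, Xbp1, beside 924 genes called in all. The Xbp1 values were 107, 75.8, 69.6, 71.9 and 89.7 CPM in fentanyl males and 72, 66.7, 62.3, 65.1 and 64.2 CPM in water males, with 2 fentanyl libraries inside the range of water. Its log2 fold change was 0.36 (SE 0.09, adjusted p = 0.056 by edgeR's quasi-likelihood test), and 0.24 without male fentanyl number 1. Without that library all 10 were still above 0, with a median of 0.14 and a range from 0.07 to 0.29. In NAc females the median was 0.01, from -0.13 for Dnajb11 to 0.15 for Creld2 (0 called by edgeR, beside 0% of all genes, 0 by DESeq2, beside 16 genes, and 0 at a raw p under 0.05, beside 9.03%). Dnajb11 there had an SE of 0.09 and an adjusted p = 0.656 by edgeR's quasi-likelihood test. The difference between the sexes, tested as an interaction in the same fit, was called for 0 members (0% of all genes), with 3 at a raw p under 0.05 (15.2% of all genes) and 0 by DESeq2 (462 genes). Dnajb11 had the smallest p (0.35, SE 0.13, adjusted p = 0.209 by edgeR's quasi-likelihood test). Averaged over sexes, NAc had 0 called members (0% of all genes), with 3 at a raw p under 0.05 (12% of all genes) and 0 by DESeq2 (108 genes). Xbp1 had the smallest p there (0.19, SE 0.06, adjusted p = 0.286). Hspa5 in NAc males, at 0.38 (SE 0.15, adjusted p = 0.189), and Pdia4, at 0.36 (SE 0.12, adjusted p = 0.13), were at 0.15 and 0.17 without male fentanyl number 1. In NAc males the 6 markers of meninges and fibroblasts had a list median of -0.84 and the 6 of striatum 0.33, with 0 called. The 6 cortex markers had list medians of -0.66 in females, 0.11 in males and 0.94 in the interaction, with 0 called, and their mean correlated with the members' deviation in NAc (0.56). The part of these markers was not tested.

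In S1 the members were also above 0 in both sexes: the median log2 fold change was 0.11 in females (10 of 10 above 0), 0.24 in males (10 of 10) and 0.16 averaged over sexes (10 of 10). No member was called in these 3 contrasts (0.142%, 0% and 1.03% of all genes called, in that order), with 2, 4 and 5 members at a raw p under 0.05 (13.9%, 7.15% and 15.8% of all genes). In males this was 0 without male fentanyl number 1 (6.31% of all genes) and 1 with the share of reads outside exons as covariate (7.69% of all genes). The smallest p was that of Calr in females (0.21, SE 0.08, adjusted p = 0.222 by edgeR's quasi-likelihood test) and of Sdf2l1 in males (0.61, SE 0.22, adjusted p = 0.624), which was 0.26 without male fentanyl number 1. DESeq2 called 0 members in either sex (402 genes in females, 0 in males) and Calr averaged over sexes (645 genes), whose log2 fold change in edgeR was 0.19 (SE 0.06, adjusted p = 0.101). Creld2 in S1 females was 12.7, 12.1, 10.8, 12.7 and 13 CPM under fentanyl and 9.84, 8.14, 10, 10.6 and 9.34 CPM under water. The log2 fold change of Creld2 was 0.35 (SE 0.14, adjusted p = 0.272 by edgeR's quasi-likelihood test) and was not called. Without male fentanyl number 1 the median in males fell to 0.10. The 9 immediate early genes tested had list medians of 0.69 in females, 0.78 in males and 0.74 averaged over sexes. In PrL these were 0.50, 0.71 and 0.60, and in NAc 0.43, 0.51 and 0.42, with 0 called. The part of these genes was not tested. Markers of other cells also differed in S1. The 6 oligodendrocyte markers had list medians of 0.47, 0.38 and 0.43 in females, males and averaged over sexes, with 0 called. Averaged over sexes the cortex marker Neurod6 rose by 0.44 and the striatum marker Drd1 by 0.42, and the endothelium marker Abcb1a fell by 0.26 (1.03% of all genes called). These 3 were not called with the share of reads outside exons as covariate. Their part in the members' values was not tested.

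In PrL the median was 0.06 in females (9 of 10 above 0), 0.18 in males (10 of 10) and 0.12 averaged over sexes. The direction turned with the share of reads outside exons as covariate, to medians of -0.14 (1 of 10 above 0), -0.01 (4 of 10) and -0.08 (2 of 10). That share differed between the groups: it was 9.48 to 11.2% in fentanyl and 11.5 to 13.3% in water females, with no overlap, and 10.4 to 12.2% and 12 to 13.7% in males. The part of this share in the members' values was not tested beyond this fit. No member was called in these contrasts (0.021%, 0% and 0.697% of all genes called), with 0, 3 and 2 at a raw p under 0.05 (9.53%, 12% and 19.1% of all genes) and 0 called by DESeq2 (46, 28 and 778 genes). Xbp1 had the smallest p in each of the 3, with 0.15 in females (SE 0.09, adjusted p = 0.599 by edgeR's quasi-likelihood test), 0.21 in males (SE 0.09, adjusted p = 0.378) and 0.18 averaged over sexes (SE 0.06, adjusted p = 0.137). With the share of reads outside exons as covariate these were -0.04, 0.05 and 0.00, and without male fentanyl number 1 Xbp1 was 0.09 in males and 0.12 averaged over sexes. Without male fentanyl number 1 the median in males was 0.04, with 0 members at a raw p under 0.05 (9.72% of all genes in that fit). In PrL males the 6 oligodendrocyte markers had a list median of -0.50 and the 6 of meninges and fibroblasts 0.52, with 0 called, and their part was not tested.

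In VBT the median was 0.03 in females, 0.09 in males and 0.04 averaged over sexes, with 0 members called in each (0% of all genes). At a raw p under 0.05 there were 0 members in each (7.86%, 8.7% and 8.49% of all genes), and DESeq2 called 0 (31, 52 and 1 genes). The 7 choroid plexus markers tested had list medians of -5.07, 1.65 and -1.69 in these contrasts, with 0 called, and their part was not tested. Sdf2l1 had the smallest p in males (0.26, SE 0.17, adjusted p = 0.736 by edgeR's quasi-likelihood test) and averaged over sexes (0.15, SE 0.12, adjusted p = 0.765), and Pdia4 in females (-0.08, SE 0.13, adjusted p = 0.958). The Sdf2l1 values were 0.05 and 0.04 without male fentanyl number 1. The Pdia4 value lay between -0.17 and 0.08 over the alternatives. Without that library the median in males was -0.03, with 4 members above 0 in place of 7. In VTA, VBT, S1 and PrL the interaction of treatment and sex was called for 0 members (0% of all genes), with 0 called by DESeq2 (7, 109, 0 and 0 genes). In each, 0 had a raw p under 0.05, beside 11.4%, 8.03%, 4.14% and 2.59% of all genes. The smallest p of these was that of Sdf2l1 in VBT (0.23, SE 0.24) and S1 (0.49, SE 0.30), and of Creld2 in PrL (0.27, SE 0.18). These were 0.01, 0.14 and 0.13 without male fentanyl number 1.

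**Figure D5:**
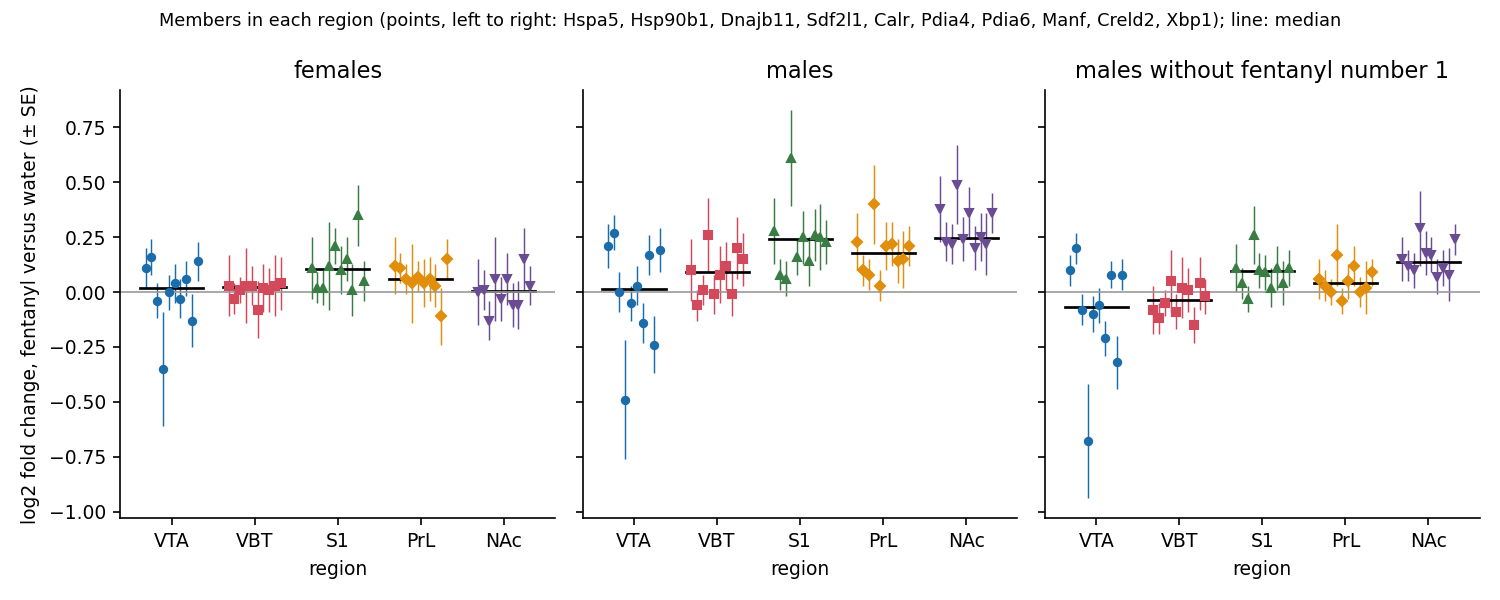
Log2 fold change of fentanyl against water (y axis, points with SE) for the 10 members in each region (x axis, members in the order given in the title; black line, median), in females, in males and in males without fentanyl number 1. The medians in males of VBT, S1, PrL and NAc (0.09, 0.24, 0.18 and 0.24) are lower without that library (-0.03, 0.10, 0.04 and 0.14), and in VTA the members lie on both sides of 0.

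The contrast of males and females in water was not used in the choice of members, although the covariation of these same libraries was. Its SEs rest on a spread shared by the 4 groups of a region, male fentanyl number 1 included. Between males and females in water, 0 of 10 members were called in each region by edgeR, with 0 of the 50 tests at a raw p under 0.05 and 0 called by DESeq2. The share of all genes at a raw p under 0.05 was 10.8% (VTA), 7.82% (VBT), 3.98% (S1), 3.4% (PrL) and 10.7% (NAc), and DESeq2 called 11 to 67 genes. The share of all genes called by edgeR was 0.0504% (VTA), 0.0898% (VBT), 0.0557% (S1), 0.0472% (PrL) and 0.0513% (NAc). The members' log2 differences, male minus female, ran from -0.19 for Sdf2l1 in S1 (SE 0.22) to 0.28 for Sdf2l1 in VTA (SE 0.27). The smallest p was that of Calr in VTA (0.13, SE 0.08, adjusted p = 0.542 by edgeR's quasi-likelihood test) and VBT (0.12, SE 0.09, adjusted p = 0.726), of Creld2 in NAc (0.16, SE 0.14, adjusted p = 0.686) and of Sdf2l1 in S1 and PrL (-0.15 there, SE 0.18). Over the alternatives the values were 0.03 to 0.18 for Calr in VTA, 0.08 to 0.24 for Creld2 in NAc and -0.26 to -0.03 for Sdf2l1 in PrL. The SEs bound what could be detected and do not show that the sexes are alike.

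Among the other genes of the pathway, calls of fentanyl against water were counted in VTA beside the 23.1% of all genes called there averaged over sexes. In that contrast 12 of 18 other ER folding genes were called, 8 higher and 4 lower, with a list median of 0.10 against 0.00 for all genes. Erp44, which retrieves folding enzymes to the ER, had the smallest p among those that rose (log2 fold change 0.30, SE 0.05, adjusted p = 9.35e-04 by edgeR's quasi-likelihood test), and Sdf2, the paralog of Sdf2l1, among those that fell (-0.23, SE 0.05, adjusted p = 0.0039). Dnajb9 (0.29), Pdia3 (0.19), Dnajc3 (0.20) and Canx (0.14) also rose, and Fkbp2 (-0.26), Cnpy2 (-0.20) and Erp29 (-0.19) also fell. With offsets for GC content, where 4.82% of all genes were called, 6 were called, 5 of them the same genes in the same direction (Dnajb9, Erp29, Erp44, Pdia3 and Sdf2).
The counts of the next lists stand beside the same 23.1%, and nothing is read from them. Of 11 genes of ER-associated degradation 2 rose and 1 fell in VTA, with Edem3, which trims glycans, at 0.15 and Os9, a lectin for misfolded glycoproteins, at -0.22. Of the 6 sensor genes 2 rose and 2 fell, with the site-2 protease Mbtps2 at 0.24 and Atf6b at -0.26. Of 11 ATF4 targets 2 rose and 2 fell, with Asns at 0.20 and Chac1 at -0.32. Of 12 translocation genes 2 rose and 2 fell, with Sec63 at 0.21 and Sec61b, a subunit of the channel, at -0.40. Of 10 cytosolic and mitochondrial heat shock genes 2 rose and 1 fell, with Hspd1 at 0.20 and Hspe1 at -0.23. With GC offsets, the calls shared in this contrast were 0 for ER-associated degradation, 0 for the sensors, 2 for the ATF4 targets (Asns and Ddit3), 1 for translocation (Srp54a) and 1 for heat shock (Hspe1).

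In S1 averaged over sexes, the signal peptidase subunit Spcs1 rose by 0.23 (SE 0.05, adjusted p = 0.0255 by edgeR's quasi-likelihood test) and Hspe1 by 0.28 (SE 0.07, adjusted p = 0.0498), beside 1.03% of all genes called. With the share of reads outside exons as covariate neither was called (0.19, adjusted p = 0.0714, and 0.25, adjusted p = 0.115, by edgeR's quasi-likelihood test). When each of the 19 libraries was left out in turn, Spcs1 was called in 15 fits and Hspe1 in 5. No gene of these 6 lists was called in VBT, PrL or NAc averaged over sexes by edgeR, where 0%, 0.697% and 0% of all genes were. In NAc males, with 0.662% of all genes called, 1 was, the channel subunit Sec61g (0.44, adjusted p = 0.0496 by edgeR's quasi-likelihood test). It was called in 6 of 20 fits that left out a library each, and not with that covariate (adjusted p = 0.0623). By the same test it was not called with the library number as a block (adjusted p = 0.0785) or without the filter on low counts (adjusted p = 0.0581). DESeq2, its size factors in edgeR and GC offsets kept the call. The list of other ER folding genes had medians of 0.04 in S1, 0.08 in PrL, 0.03 in NAc and -0.01 in VBT averaged over sexes, where the median of the members was 0.16, 0.12, 0.15 and 0.04. Without male fentanyl number 1 the members' medians were 0.09, 0.06, 0.07 and -0.02, and in PrL it was -0.08 with the share of reads outside exons as covariate.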

How the data were processed

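The authors deposited raw counts per Ensembl gene, 1 file per library; per the submitters' processing notes HTSeq and the build GRCm38 were used, and the aligner, filters and strand setting are not given in the sources used here. Per the labels' protocols, Trizol and a column kit gave the RNA, and the SMART-Seq v4 kit the libraries. HTSeq rows that name no gene were left out of library sizes (reads outside exons, 9.48 to 17.0% of all rows' sum; multiply aligned and ambiguous reads, 3.74 to 7.86% and 1.81 to 2.65% of gene counts). Symbols came from GENCODE M21. The members and gene lists were chosen with earlier results of these data known. Each region was fitted alone with edgeR 4.0.16 (TMM, filterByExpr, quasi-likelihood F-test, 4 sex by treatment groups), checked on simulated data, and with DESeq2 1.42.0 as an alternative. Correlations used log2(CPM + 1) minus the group mean. All members are named. Of other genes, the text names the called gene of smallest p in each direction per list and region, the 10 most like the members, and members of smallest p per contrast; further genes (such as Dnajb9, Canx and the covariation values of list genes) were named after their values were seen. GC offsets, fits without male fentanyl number 1 and the medians of the members under other settings were added after seeing the data.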

Additional observations from a re-analysis of the deposited data

Results flagged for a closer look

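In groups of 4 or 5 libraries, a value was set apart when its gap to the nearest other library exceeded Dixon's limit, which chance passes in about 1 of 20 groups. This held for 15 of 200 groups of single members and 1 of 20 groups of the mean deviation, and 11 of the 15 were male fentanyl number 1. That library stood apart for Hsp90b1 in S1 (359 CPM) and NAc (474), Dnajb11 in S1 (71.7) and NAc (77.3), Sdf2l1 in VTA (10.6), S1 (15.8) and PrL (12.4), Pdia4 in PrL (59), Manf in NAc (64.4), and Creld2 in S1 (17.5) and NAc (19.9). The others were Hsp90b1 in NAc for female fentanyl number 3 (308 CPM, low) and female water number 4 (371), and Manf in VBT for female fentanyl number 3 (48.9) and in NAc for male water number 1 (49.5). The mean deviation of the members stood apart in NAc for female fentanyl number 4 (0.07 on the log2 scale). By this limit Hspa5 was not set apart in any region. In VBT no member was set apart for male fentanyl number 1, and its mean deviation was not set apart in any region.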

How the results depend on the processing

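The count of called members stayed at its value in most fits, with these exceptions. In VTA males (1 called) it was 3 with the share of reads outside exons as covariate (Creld2, Pdia6 and Sdf2l1, all lower), 0 with offsets for GC content, 0 with all VTA libraries, and 0 to 1 when single libraries were left out; averaged over sexes (1 called) it was 4, 1 (Xbp1 in place of Hsp90b1), 0 and 1 to 2. With that covariate 27% and 28.8% of all genes were called in these contrasts. In NAc males (0 called) it was 1 by DESeq2, 1 with GC offsets and 0 to 1 when single libraries were left out, each time Xbp1. In S1 averaged over sexes (0 called) it was 1 by DESeq2. With all VTA libraries the median of all genes in males was 0.20. Over all genes, NAc males had 129 calls by edgeR and 924 by DESeq2, S1 averaged over sexes 203 and 645, and PrL averaged 133 and 778. With the share of reads outside exons as covariate these 3 had 316, 1 and 0 calls, and with single libraries left out 0 to 813, 30 to 502 and 38 to 289; GC offsets gave 380 in NAc males and 309 in PrL. VTA males had 4355, and 809 under GC offsets.

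With the replicate block, the count of called members was unchanged in 25 of 25 contrasts (Hsp90b1 in VTA males, log2 fold change 0.28), while NAc males had 2 calls over all genes. Numbers do not pair the groups of a region: 49 of 144 same-numbered library pairs correlated above 0.1 (median -0.00). Between regions, a library correlated best with its own number in 71 of 192 cases over genes other than the members.

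The median covariation (0.68) was 0.47 with all libraries, 0.45 without male fentanyl number 1, 0.44 in females, 0.50 in water, and 0.48 to 0.73 when each number was left out. The joint movement in S1 (0.80) was 0.63 by Spearman's rho, 0.53 without male fentanyl number 1 and 0.50 to 0.85 when each number was left out. In PrL (0.75) the last 2 were 0.54 and 0.57 to 0.78, and in NAc (0.68) 0.40 and 0.47 to 0.75. The median log2 fold change of the members reversed in PrL with the share of reads outside exons as covariate: from 0.06 to -0.14 in females, 0.18 to -0.01 in males and 0.12 to -0.08 averaged over sexes. In VTA, from 0.02, 0.01 and 0.01, it was -0.02, -0.08 and -0.06 under that covariate, -0.07 in males and -0.03 averaged without male fentanyl number 1, and -0.00 averaged with GC offsets. In VBT it went from 0.09 to -0.03 in males and from 0.04 to -0.02 averaged without male fentanyl number 1. The cause was not tested. Depth was ample for the members; with 4 or 5 libraries a group, the spread between libraries limits precision.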
